A study of Mus musculus with 12 samples.

Results

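The Hox genes of the Hoxa, Hoxb, Hoxc and Hoxd clusters were followed in 12 mouse lymphomas. They were chosen by name alone, as every target on the array whose name was Hox, a cluster letter and a paralogue number. This gave 39 genes of the 30774 target names on the array, and all 39 Hox genes of the RefSeq annotation (GRCm38.p6) were among them. The array carried 11 Hoxa genes (chromosome 6), 10 Hoxb genes (chromosome 11), 9 Hoxc genes (chromosome 15) and 9 Hoxd genes (chromosome 2), read by 57 probes.

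Hox genes encode homeodomain transcription factors that give cells their position along the body axis. They lie in order within each cluster, with low paralogue numbers acting toward the head and high numbers toward the tail, and the clusters are held silent by Polycomb proteins where they are not used. In blood, genes of the middle paralogues are active in stem and progenitor cells and are normally turned down as B cells mature, and several of them are kept on in leukaemias. Their proteins bind DNA with the TALE homeodomain cofactors of the Pbx and Meis families. Smchd1 is a noncanonical SMC protein that acts in silencing on the inactive X chromosome, and Hox clusters are among the places where it has been studied.

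All 12 samples were end-stage lymphomas of C57BL/6 mice, with the Eµ-Myc transgene in both groups. In this transgene the enhancer of the immunoglobulin heavy chain drives Myc in cells of the B lineage. The 6 wildtype lymphomas had wildtype Smchd1, and the 6 null lymphomas also carried a gene trap allele of Smchd1 on both chromosomes. Cells had been purified by sorting, and neither the sort markers nor the age and sex of the mice are stated in the labels. Each lymphoma was read on 1 Illumina MouseWG-6 v2 array, and each of the 2 BeadChips held 3 lymphomas of each group (wildtype 1, 2 and 3 with null 4, 5 and 6 on BeadChip 1). Whether each replicate was a separate mouse is not stated, so p-values measure the spread between these samples.

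The mean raw intensity ranged from 255 to 599 over the arrays. The brightest of 5 Smchd1 probes was lower in every null lymphoma than in every wildtype one, by 4.37 ± 0.29 (SE) on the log2 scale (limma, adjusted p = 1.98e-05). Of the others, 1 overlapped between the groups, at 4.58 to 7.17 in wildtype and 4.70 to 6.16 in null, 1 was detected in 4 wildtype lymphomas alone and 2 on no array. Ebf1, a transcription factor that sets the B lineage, was not detected in wildtype 2 or null 2, at a log2 intensity of 4.57 and 4.38, against 5.36 to 7.82 in the other lymphomas (a gene chosen after its values were seen). The mean over 6 B cell markers was 8.32 and 8.18 in those 2 lymphomas and 8.81 to 10.45 elsewhere. Ighm, the immunoglobulin heavy chain gene, was high in all 12 but also lowest in those 2. It was at 13.51 in wildtype 2 and 13.57 in null 2, against 14.09 to 14.63 elsewhere. The differences of Hoxa4, Hoxa7, Hoxa13, Hoxb2, Hoxc4, Hoxc8 and Hoxd11 are therefore also given below without wildtype 2 and null 2. Without them the null minus wildtype difference was -0.46 for Hoxb4, -0.45 for Hoxb5, -0.51 for Hoxb6 and -0.80 for Hoxb7. With all 12 lymphomas these were -0.36, -0.35, -0.40 and -0.66. That of Hoxc10 is given with all 12 only. The mean over 7 T cell markers was highest in null 1 (10.48) and wildtype 1 (8.58) and was 5.00 to 8.25 in the others. In bulk RNA, fewer cells of a type and less RNA per cell cannot be told apart.

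Promoter windows of 3 Hox genes, from 250 bases before to 50 bases after the annotated start, are shown because they span the range of detection described next: Hoxa13 was detected in all 12 lymphomas, Hoxb4 in 9, and Hoxb8 in 0. Sequences are from RefSeq (GRCm38.p6), 5′ to 3′ along the gene, with each CG dinucleotide in capitals. The Hoxa13 window lay on the minus strand at chr6:52260831-52261130, the Hoxb4 window on the plus strand at chr11:96318017-96318316, and the Hoxb8 window on the plus strand at chr11:96281655-96281954.
Hoxa13: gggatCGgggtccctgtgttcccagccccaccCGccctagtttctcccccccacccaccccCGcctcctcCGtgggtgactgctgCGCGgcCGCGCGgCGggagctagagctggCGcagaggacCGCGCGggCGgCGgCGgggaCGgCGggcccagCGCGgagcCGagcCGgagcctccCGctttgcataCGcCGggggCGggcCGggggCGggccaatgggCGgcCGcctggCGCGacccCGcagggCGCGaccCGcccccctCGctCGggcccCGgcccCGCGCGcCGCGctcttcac
Hoxb4: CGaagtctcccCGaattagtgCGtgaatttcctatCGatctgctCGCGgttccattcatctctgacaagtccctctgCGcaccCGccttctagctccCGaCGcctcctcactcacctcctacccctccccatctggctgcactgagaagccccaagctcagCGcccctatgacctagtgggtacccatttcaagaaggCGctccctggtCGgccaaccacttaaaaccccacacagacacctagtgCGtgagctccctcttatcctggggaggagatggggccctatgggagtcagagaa
Hoxb8: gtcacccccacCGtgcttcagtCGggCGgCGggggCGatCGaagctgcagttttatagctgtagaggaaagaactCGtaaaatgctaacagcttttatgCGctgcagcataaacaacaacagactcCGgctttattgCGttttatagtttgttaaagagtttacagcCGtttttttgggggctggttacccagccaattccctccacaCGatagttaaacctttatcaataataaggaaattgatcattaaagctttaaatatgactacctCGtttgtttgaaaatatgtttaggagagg
The Hoxa13 window held 45 CG dinucleotides, the Hoxb4 window 14 and the Hoxb8 window 13. The table held 24 windows for 22 Hox genes, with a median of 14.5 CG dinucleotides against 7 over all 32851 windows. The letters CACGTG, an E-box that Myc binds, were found on either strand in 5 of the 24 Hox windows (20.8%, against 7.15% of all windows), namely those of Hoxd1, Hoxd4, Hoxd10, Hoxd13 and 1 of 2 windows of Hoxd11. The letters TGATNNAT, a site that Hox and Pbx proteins bind together, were searched on both strands and found in 4 Hox windows (16.7%, against 8.85% of all), which were those of Hoxa2, Hoxb1, Hoxb8 and Hoxd11. None of the 3 windows printed held CACGTG, and these matches describe letters in a window only.

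Most Hox genes were at background in these lymphomas, and those that were measured came mainly from the middle of the clusters. A probe counted as detected where its detection p against the negative controls of its array was under 0.05, and a gene was tested where a probe was detected on at least 3 of the 12 arrays. By that rule 12 of the 39 Hox genes were measured (30.8%), against 44.7% of all genes. These were Hoxa4, Hoxa7, Hoxa13, Hoxb2, Hoxb4, Hoxb5, Hoxb6, Hoxb7, Hoxc4, Hoxc8, Hoxc10 and Hoxd11. A further 8 genes were detected on 1 or 2 arrays and 19 on none. The 41 probes of the 27 untested genes were detected in 13 of 492 readings (2.64%), a share that the filter itself keeps low.

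The Hoxb cluster was detected most often and the Hoxd cluster least. Of all readings of a probe on an array, 23.3% were detected for Hoxb, 15.2% for Hoxc, 10.8% for Hoxa and 6.82% for Hoxd. The measured genes numbered 5 of 10 in Hoxb, 3 of 9 in Hoxc, 3 of 11 in Hoxa and 1 of 9 in Hoxd. By position, paralogues 4 to 8 were detected in 25.6% of readings of a gene on an array, with 8 of 15 genes measured. Paralogues 1 to 3 were detected in 13.5%, with 1 of 8 measured, and paralogues 9 to 13 in 15.6%, with 3 of 16 measured. Hoxa13 alone gave 12 of the detections among the last of these groups. Probes of different genes bind with different strength, so detection is not compared as an amount of RNA.

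**Figure D1:**
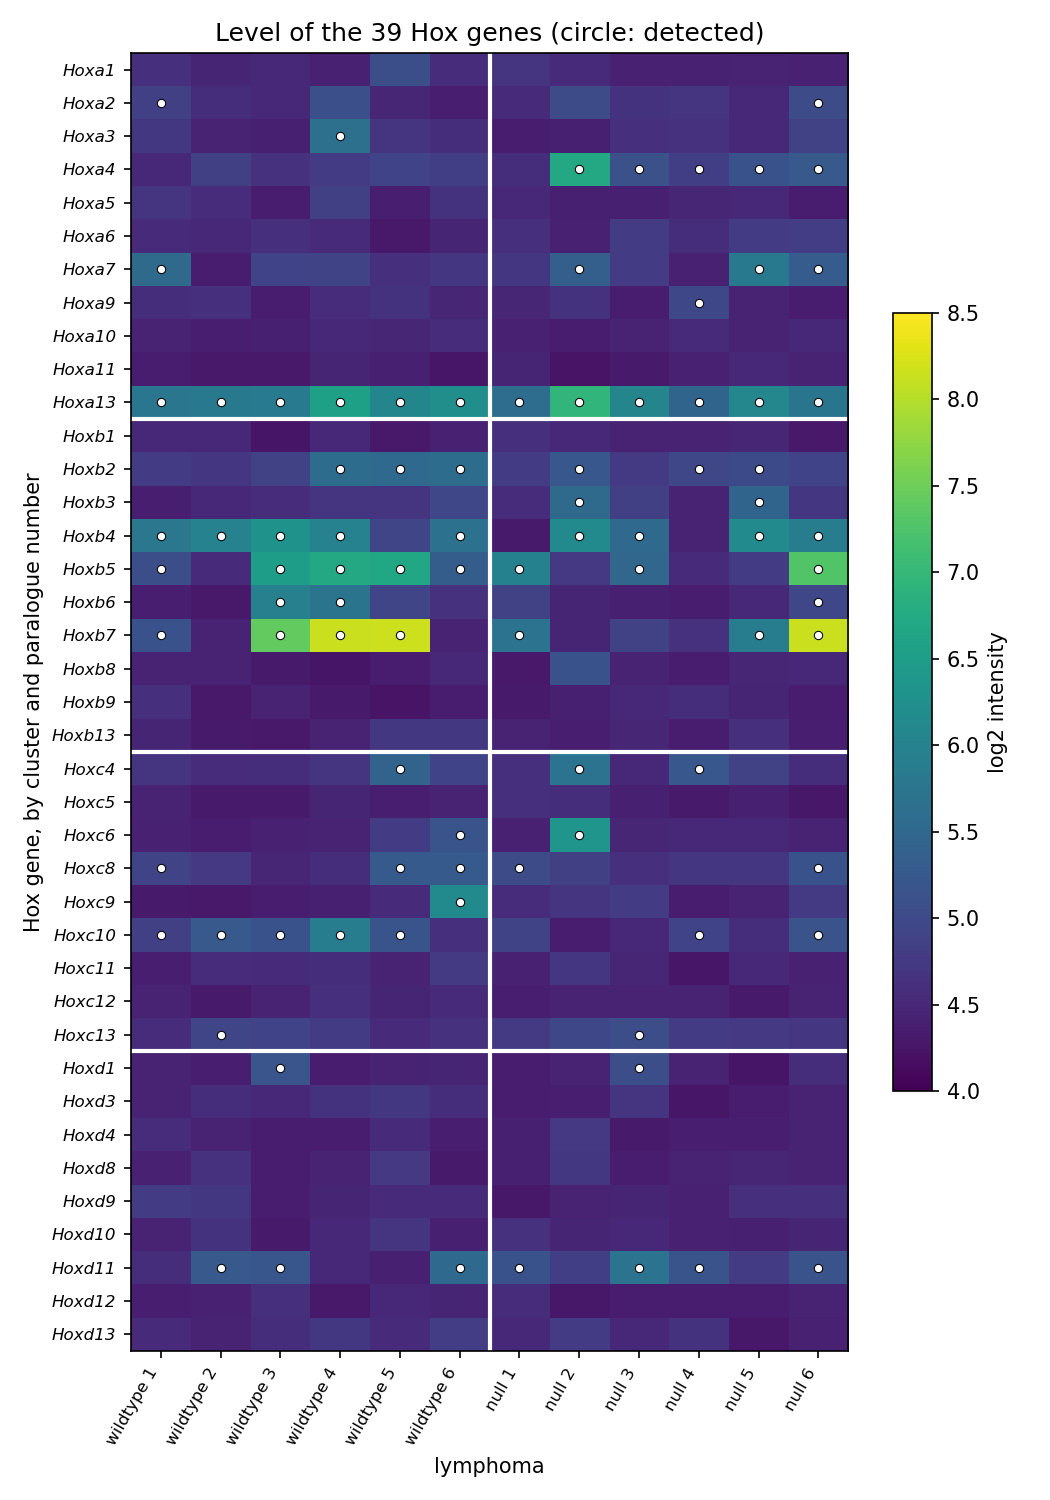
Log2 intensity of the 39 Hox genes (rows, by cluster and paralogue number) in the 12 lymphomas (columns, wildtype left of the white line). A circle marks a reading with detection p under 0.05, and the brightest cells are Hoxb7 in wildtype 3, wildtype 4, wildtype 5 and null 6, between 7.42 and 8.15.

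The number of Hox genes detected per lymphoma overlapped between the groups. Wildtype lymphomas had between 5 and 8 (median 8) and null lymphomas between 5 and 11 (median 7). The most, 11, were in null 6, and the fewest, 5, in wildtype 2 and null 1. With a detection p under 0.01 the medians were 4.5 in wildtype and 3 in null. Over all genes, 36.4% to 42.1% were detected in a lymphoma.

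**Figure D2:**
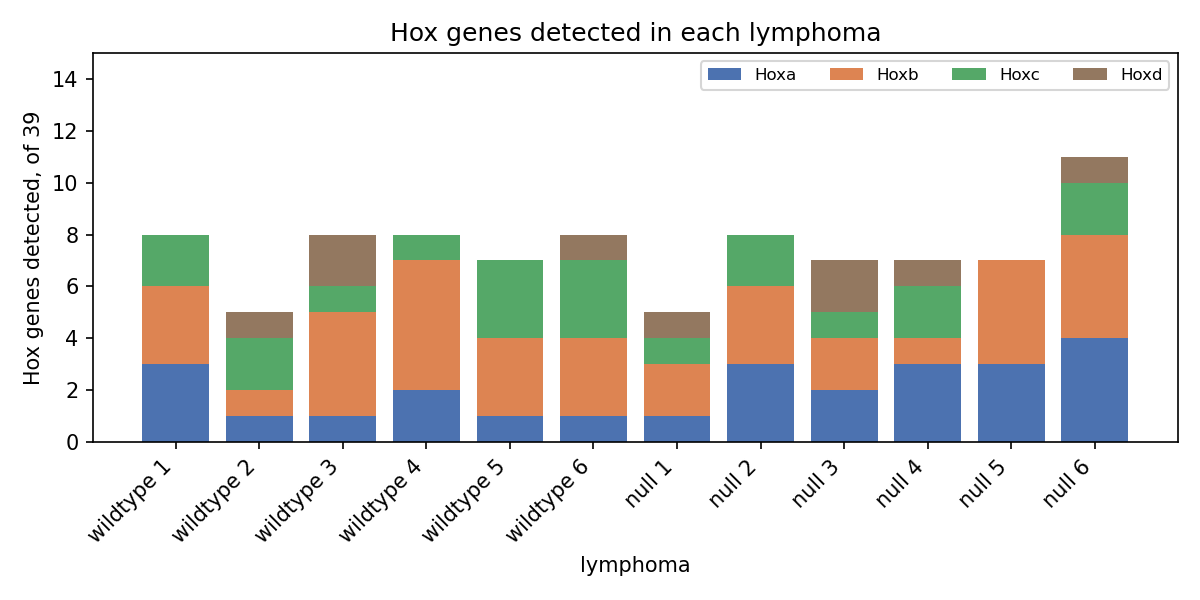
Number of Hox genes detected (of 39, vertical axis) in each lymphoma, with 1 bar per lymphoma split by cluster. Null 6 had 11, and the others had between 5 and 8.

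None of the 12 measured Hox genes passed the test of a change between null and wildtype lymphomas. limma, with Benjamini-Hochberg adjustment over 12822 genes, called 0 of them, and 0 had an unadjusted p under 0.05, against 0.0234% of all genes called (3 genes) and 1.46% with an unadjusted p under 0.05. In 0 of the 12 were the 2 groups free of overlap, against 0.0858% of all genes. The null minus wildtype difference was above 0 for 4 Hox genes and below 0 for 8, with a median of -0.16 on the log2 scale beside -0.00046 for all genes. The differences ran from -0.66 (Hoxb7) to 0.52 (Hoxa4), and the smallest unadjusted p was 0.0896, for Hoxc10. The 95% intervals were wide for the genes that varied most, so changes of the sizes they hold were not detectable with 6 lymphomas a group.

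**Figure D3:**
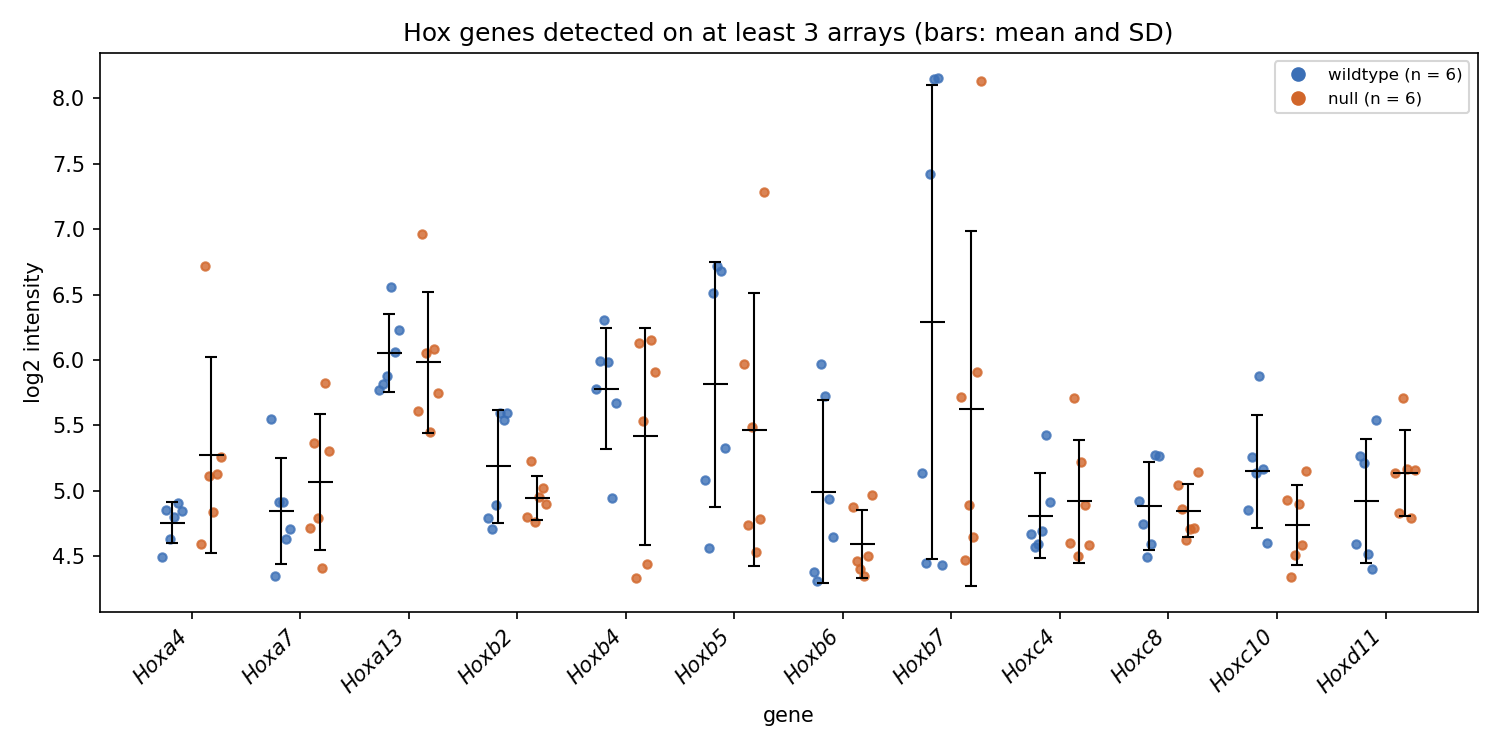
Log2 intensity (vertical axis) of the 12 measured Hox genes, with 1 point per lymphoma and bars for the mean and SD of each group (n = 6). The groups overlap for every gene shown, and Hoxb7 spans the widest range, from 4.43 to 8.15.

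The largest differences between lymphomas lay in the middle of the Hoxb cluster and were found within both genotypes. Hoxb7, a homeobox gene found raised in several tumour types, was at 7.42 in wildtype 3, 8.15 in wildtype 4, 8.15 in wildtype 5 and 8.13 in null 6. It was at 5.13 in wildtype 1, 4.45 in wildtype 2, 4.43 in wildtype 6, 5.72 in null 1, 4.47 in null 2, 4.89 in null 3, 4.65 in null 4 and 5.91 in null 5. High and low lymphomas were thus found in both groups, and on both BeadChips. The top of the range was 13.2-fold above the bottom, which lay at background, so the size of this ratio depends on the background correction. The SD over the 12 lymphomas was 1.56, and 3.92% of all genes tested had a larger one, while the median gene had an SD of 0.47.

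The raw intensities of Hoxb7 also differed between lymphomas, by a smaller ratio than the normalized values. On arrays of like mean raw intensity (356 and 357), Hoxb7 was at 267 in wildtype 4 and at 89.4 in wildtype 6. The arrays of null 6 and null 2 were less alike, with means of 572 and 255. In null 6 the raw intensity was 433 over 41 beads with a standard error of 26.1, and in null 2 it was 86.1 over 48 beads with a standard error of 3.08, which was below detection. Both Hoxb7 probes were detected on 7 arrays, 4 of wildtype and 3 of null lymphomas. They differed by at most 0.85 on the log2 scale on any array.

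Hoxb5, which marks long-term blood stem cells in mice, was at 6.51 in wildtype 3, 6.72 in wildtype 4, 6.68 in wildtype 5 and 7.29 in null 6. It ran from 4.53 to 5.97 in the other 8 lymphomas, and null 1 was the highest of these. Hoxb6, the gene between them, was at 5.97 in wildtype 3, 5.73 in wildtype 4, 4.96 in null 6 and 4.93 in wildtype 5, with detection in all of these but wildtype 5. For each of Hoxb5, Hoxb6 and Hoxb7 the 4 highest lymphomas were the same ones, 3 of them wildtype and 1 null. This shared order was noticed in the data and was given no test. All 3 arrays with Hoxb6 also had Hoxb5 and Hoxb7.

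**Figure D4:**
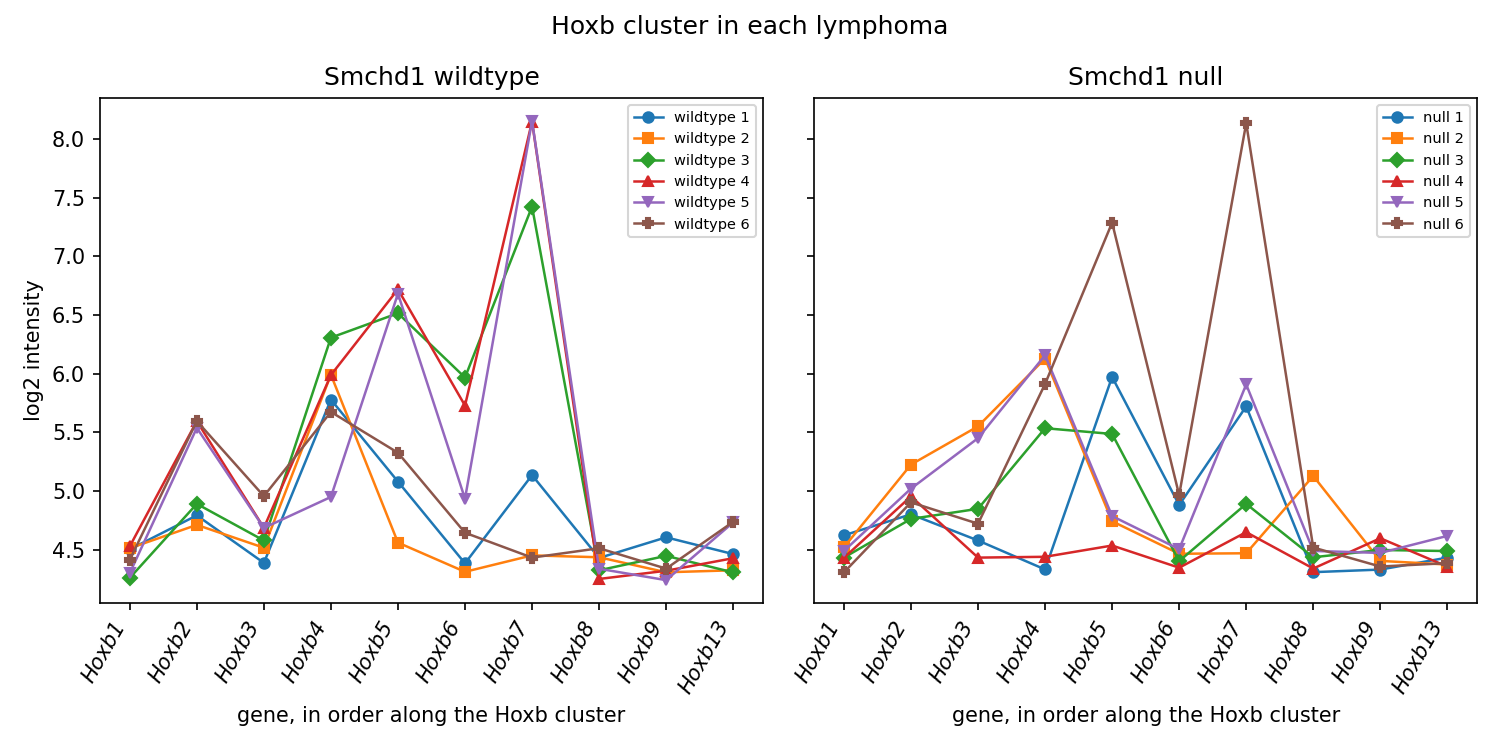
Log2 intensity (vertical axis) of the 10 Hoxb genes in cluster order (horizontal axis), with 1 line per lymphoma, wildtype on the left and null on the right. At Hoxb7 wildtype 3, 4 and 5 and null 6 lie between 7.42 and 8.15 and the other lymphomas at 5.91 or below. Heights of different genes come from different probes and are not compared.

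None of the Hoxb genes with higher paralogue numbers was detected. Hoxb8 and Hoxb9, the next genes along the cluster, and Hoxb13 were detected on 0 arrays, and so was Hoxb1 at the other end. Hoxb8, whose activation with interleukin 3 drives a mouse myeloid leukaemia line, did not exceed 5.13. On the other side Hoxb4, which expands blood stem cells when overexpressed, had a different pattern. It was detected in 9 lymphomas, at 5.53 to 6.31, and was low in null 1 (4.33), null 4 (4.44) and wildtype 5 (4.95). Wildtype 5 thus had high Hoxb5 and Hoxb7 with Hoxb4 not detected, while null 2 had Hoxb4 at 6.13 with Hoxb5 and Hoxb7 not detected. Before normalization these 2 Hoxb4 readings were close. The raw intensity was 101.0 in wildtype 5, with a bead standard error of 4.5, and 105.7 in null 2, with one of 5.8. The Hoxb4 levels of these 2 lymphomas are therefore not read as opposite. Hoxb4 and Hoxb5 were detected together in 6 lymphomas.

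The null minus wildtype difference of Hoxb7 was -0.66 ± 0.82 (SE), with a 95% interval from -2.44 to 1.11. Wildtype lymphomas ran from 4.43 to 8.15 (median 6.28) and null ones from 4.47 to 8.13 (median 5.30). The difference was 0.56 on BeadChip 1 and -1.89 on BeadChip 2, so its direction was not the same on both. With 1 lymphoma left out it ran from -1.16 (without null 6) to -0.29 (without wildtype 4 or wildtype 5).

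For Hoxb5 the range was 4.56 to 6.72 (median 5.92) in wildtype and 4.53 to 7.29 (median 5.13) in null, with a difference of -0.35 ± 0.52. It was 0.15 on BeadChip 1 and -0.84 on BeadChip 2, and ran from -0.71 (without null 6) to -0.16 (without null 4 or wildtype 4) with 1 lymphoma left out. For Hoxb6 the range was 4.31 to 5.97 (median 4.79) in wildtype and 4.34 to 4.96 (median 4.48) in null, with a difference of -0.40 ± 0.29. Its direction was the same on both BeadChips, at -0.28 and -0.52, and the groups overlapped. Without wildtype 3 it was -0.21.

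For Hoxb4 the range was 4.95 to 6.31 (median 5.88) in wildtype and 4.33 to 6.16 (median 5.72) in null, and the difference was -0.36 ± 0.36, with -0.52 on BeadChip 1 and -0.21 on BeadChip 2. It ran from -0.53 (without wildtype 5) to -0.15 (without null 1) with 1 lymphoma left out. Hoxb2, which acts in patterning the hindbrain, ran from 4.71 to 5.60 (median 5.21) in wildtype and from 4.76 to 5.22 (median 4.93) in null. Its difference was -0.24 ± 0.21, with 0.16 on BeadChip 1 and -0.65 on BeadChip 2, -0.16 without wildtype 4 or wildtype 6, and -0.39 without wildtype 2 and null 2. Wildtype 4, 5 and 6, the wildtype lymphomas of BeadChip 2, were its 3 highest, at 5.54 to 5.60. With the BeadChip as a block in the fit limma also called 0 Hox genes.

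In the Hoxa cluster, Hoxa4 was detected in null lymphomas only by this threshold, though its levels overlapped. Hoxa4 was detected on 0 wildtype and 5 null arrays, and 0.733% of all tested genes had 0 wildtype detections. It passed the filter through null arrays alone, so this pattern gives no support for a change. Wildtype 2 and wildtype 6 lay near the threshold, with a detection p of 0.077 and 0.087. Wildtype values ran from 4.49 to 4.91 (median 4.82) and null values from 4.59 to 6.72 (median 5.12). After normalization null 2 was far above the rest, and null 1 and null 4 lay among the wildtype values. Before it, the raw Hoxa4 intensity was 117.6 in null 2, below 127.0 in null 6 and 120.2 in null 5. The null 2 array had the lowest mean raw intensity, 255, against 572 in null 6. The 6 wildtype values, all undetected, were set to the lowest detected signal of their array, and the null values were kept as measured. The ratio of null to wildtype means was then 1.22-fold. This ratio depends on the background correction, includes null 2 and leaves out the spread. The fitted difference was 0.52 ± 0.30, with a 95% interval from -0.13 to 1.17 that includes 0, and limma gave an unadjusted p of 0.107 and an adjusted p of 1.00. It was 0.42 on BeadChip 1 and 0.63 on BeadChip 2. Without wildtype 2 and null 2, in which Ebf1 was not detected, the difference was 0.25, without null 2 alone it was 0.23, and without background correction it was 0.21.

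Hoxa7, one of the genes kept on in leukaemias with MLL fusions, was detected in wildtype 1 (5.55), null 2 (5.37), null 5 (5.83) and null 6 (5.30). It was between 4.35 and 4.92 in the other 8. The difference was 0.22 ± 0.27, with 0.24 and 0.21 on the 2 BeadChips, and the groups overlapped. It was 0.066 without wildtype 2 and null 2, and from 0.073 (without null 5) to 0.37 (without wildtype 1) with 1 lymphoma left out. Hoxa9, the gene of the cluster best known in leukaemia, was detected in null 4 alone, at 4.97, and Hoxa10 on 0 arrays.

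Hoxa13, which patterns the digits and the hindgut, was detected on all 12 arrays, but by 1 of its 3 probes. Of the other 2 probes, 1 was detected on 1 array and 1 on none. Where each probe lies in the gene is not given in the files, so the probes are reported as disagreeing. With the probe that was detected, values ran from 5.77 to 6.56 (median 5.97) in wildtype and from 5.45 to 6.96 (median 5.90) in null, and the difference was -0.07 ± 0.25, with -0.06 on BeadChip 1 and -0.08 on BeadChip 2. Null 2 was again the highest after normalization, though its raw Hoxa13 intensity was 124.1, against 181.1 in wildtype 1 and 164.9 in null 5. Without wildtype 2 and null 2 the difference was -0.31.

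In the Hoxc cluster, Hoxc10, which acts in the lumbar spinal cord, was detected in 5 wildtype and 2 null lymphomas. Its values ran from 4.60 to 5.88 (median 5.15) in wildtype and from 4.34 to 5.15 (median 4.74) in null. The difference was -0.41 ± 0.23 (95% interval -0.90 to 0.07), with -0.21 on BeadChip 1 and -0.62 on BeadChip 2, and -0.27 without wildtype 4. A second Hoxc10 probe was detected on 0 arrays.

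Hoxc4, which in mouse B cells takes part in turning on the antibody-diversifying enzyme AID, was detected in wildtype 5 (5.42), null 2 (5.71) and null 4 (5.22). Its difference was 0.11 ± 0.24, with 0.29 on BeadChip 1 and -0.07 on BeadChip 2, and it turned to -0.10 without wildtype 2 and null 2. Hoxc8, which acts in the thoracic skeleton and brachial motor neurons, stayed between 4.49 and 5.27 in all lymphomas. It was detected on 5 arrays, 3 wildtype and 2 null, and its difference was -0.04 ± 0.19, with 0.13 on BeadChip 1 and -0.20 on BeadChip 2, and -0.07 without wildtype 2 and null 2.

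Hoxd11, which acts with Hoxa11 in the forearm and kidney, was the only measured Hoxd gene. It was detected in 3 wildtype and 4 null lymphomas, at up to 5.54 in wildtype 6 and 5.71 in null 3. Wildtype values had a median of 4.90 and null values one of 5.15, and the difference was 0.21 ± 0.24, with 0.02 on BeadChip 1 and 0.41 on BeadChip 2. It ran from 0.096 (without null 3) to 0.34 (without wildtype 6) with 1 lymphoma left out, and was 0.34 without wildtype 2 and null 2. The groups overlapped over most of their range.

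**Figure D5:**
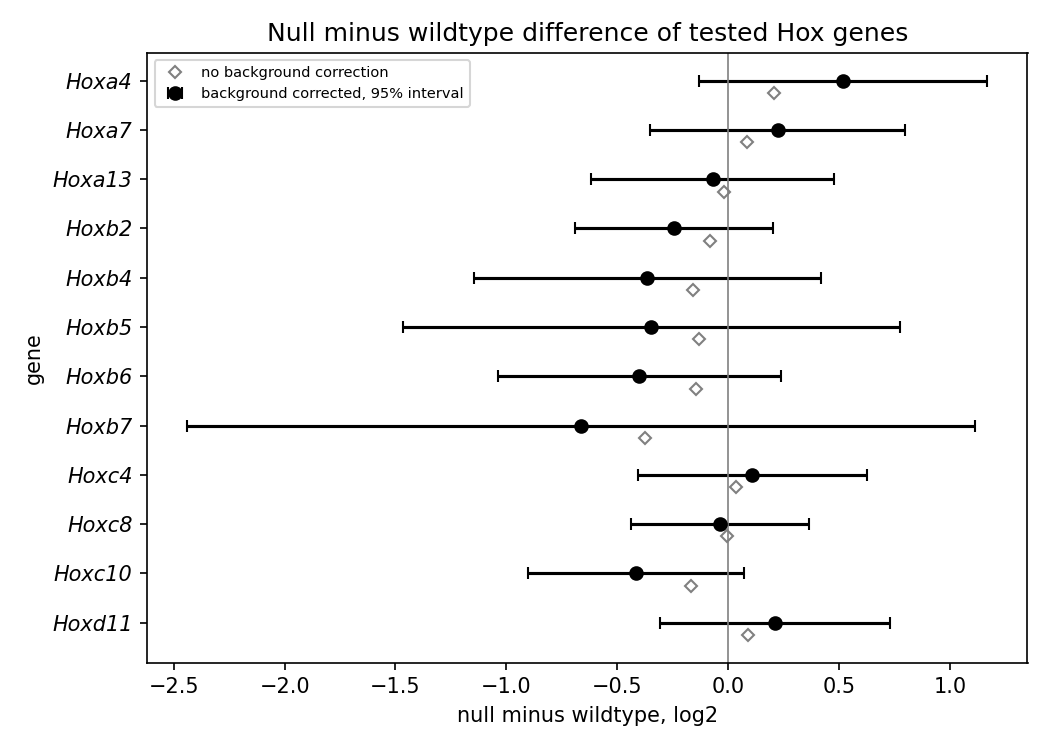
Null minus wildtype difference on the log2 scale (horizontal axis) of the 12 measured Hox genes, with 95% intervals from limma (black) and the value without background correction (open diamonds). All 12 intervals include 0, and the values without background correction lie closer to 0.

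Further Hox genes were detected on 1 or 2 arrays only. Some background readings also reach a detection p under 0.05, so a single detection may be background. Of these genes Hoxb3, Hoxc6 and Hoxc9 had 1 reading each with a detection p under 0.01, and the others had none. Hoxc6 was at 6.36 in null 2 and at 5.17 in wildtype 6, its 2 detections, and at 4.79 or below elsewhere. Hoxc9 was at 6.14 in wildtype 6, its only detection, and at 4.78 or below elsewhere. Hoxb3, a hindbrain gene also active in blood progenitors, was detected in null 2 (5.55) and null 5 (5.45) by 1 of its 4 probes, and the other 3 were detected on 0 arrays. Hoxa3 was detected in wildtype 4 alone, at 5.66, by 1 of its 3 probes. Hoxd1 was detected in wildtype 3 (5.19) and null 3 (5.08), Hoxa2 in wildtype 1 (4.86) and null 6 (5.04), and Hoxc13 in wildtype 2 (4.94) and null 3 (5.07). The array also held 5 other genes lying within the clusters, among them the antisense gene Hoxa11os and the noncoding gene Haglr, with 6 probes, of which 5 were detected on no array and 1 on 1.

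Genes that work with the Hox proteins or act on their clusters were read from lists. Of 9 TALE cofactors 7 were tested, 3 with higher and 4 with lower values in null, and limma called 0, with 0 at an unadjusted p under 0.05. Meis1, the cofactor that cooperates with Hoxa9 in leukaemia, was detected in 1 wildtype and 4 null lymphomas. It ran from 4.40 to 6.35 (median 4.52) in wildtype and from 4.60 to 7.56 (median 5.35) in null, with a difference of 0.97 ± 0.52 (limma, unadjusted p = 0.0853, adjusted p = 1.00). Its highest lymphomas were null 6 (7.56), null 2 (6.96) and wildtype 3 (6.35), while wildtype 4 (4.49) and wildtype 5 (4.47), both high in Hoxb7, had none detected. Without wildtype 2 and null 2 the difference was 0.65. Pbx3 differed by 0.28 ± 0.24.

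Of 20 activators of Hox genes (the MLL and Dot1l complexes, demethylases of H3K27, Cdx proteins and retinoic acid receptors) 17 were tested, and limma called 0, with 0 at an unadjusted p under 0.05. The retinoic acid receptor gene Rara differed by 0.58 ± 0.30 and Mllt3, a partner in MLL fusions, by -0.39 ± 0.32. Of 21 Polycomb genes 17 were tested and 0 called, with 1 at an unadjusted p under 0.05. This was Mtf2, which guides the Polycomb complex to CG-rich DNA, at 9.67 to 10.81 in wildtype and 8.70 to 10.38 in null, with a difference of -0.63 ± 0.29 (limma, unadjusted p = 0.0494, adjusted p = 1.00). Bmi1 differed by 0.52 ± 0.43.

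Genes beside the clusters gave no call either, with 13 of 20 tested and 0 at an unadjusted p under 0.05. Of the 18 on the array, 5 were not tested. Evx2 and Calcoco2 were detected on 0 arrays, Lnpk on 1 wildtype array, Ttll6 on 1 null array and Evx1 on 2 null arrays. Evx1 was at 6.53 in null 1 and at 4.95 or below in the other lymphomas. Tax1bp1, near the Hoxa cluster, was at 10.39 or above in every lymphoma. Tax1bp1 differed by -0.30 ± 0.24 and Smug1 by 0.21 ± 0.18. Of 13 other homeobox genes of blood cells 12 were tested and 0 called, with 0 at an unadjusted p under 0.05. Pou2f2, which encodes the B cell factor Oct-2, differed by -0.67 ± 0.34, and Hhex by 0.43 ± 0.26.

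Markers of other cells were set beside the Hox values. The mean over 5 tested stem and progenitor markers was 6.71 in wildtype 3, 6.33 in wildtype 4, 6.21 in wildtype 5 and 6.24 in null 6, the lymphomas highest in Hoxb7, and 6.20 to 7.39 in the other 8. Of the genes of that list, Cd34, Gata2 and Erg were detected on 0 arrays, while Mecom and Lmo2 were detected on all 12, Slamf1 on 7, Procr on 4 and Kit on 3. Null 2 was the highest for Hoxa4, Hoxa13, Hoxb3, Hoxc4 and Hoxc6, among other Hox genes, after normalization, on the array with the lowest mean raw intensity (255). Its raw intensity was 98.7 for Hoxb3, against 132.0 in null 5, and 100.3 for Hoxc4, against 130.1 in null 4. Null 2 had the highest mean over 8 myeloid markers (8.55) and over 5 erythroid markers (8.84) of all lymphomas. Null 1 followed with 8.52 and 8.59. The part of these cells, or of the low array intensity, in the Hox values of null 2 was not tested. Wildtype 6, the highest for Hoxc9, had means of 8.25 for T cell and 6.74 for NK cell markers. Wildtype 1 was higher on both lists, at 8.58 and 7.24, with Hoxc9 at 4.33. Null 1 had a T cell mean of 10.48 with Hoxc9 at 4.57. A link of these markers to Hoxc9 was not tested.

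By group, limma called 0 members of any marker list. The B cell list had 6 of 6 tested members lower in null with a median of -0.15, the myeloid list 8 of 8 higher with a median of 0.47, and the erythroid list 5 of 5 higher with a median of 0.55. The T cell list had 3 higher and 4 lower, the NK cell list 3 of 3 lower with a median of -0.81, the stem and progenitor list 3 higher and 2 lower, and the stromal list 2 of each. Of the 3 tested NK genes, Klrb1c was detected on 4 wildtype and 0 null arrays and Klre1 on 3 wildtype and 0 null arrays. Both passed the filter through wildtype arrays alone, so their direction is no support for a change. The same holds for Cxcl12, 1 of the 2 higher stromal genes. It was detected on 0 wildtype and 3 null arrays and passed the filter through null arrays alone. Klrb1c, an NK cell receptor gene at 4.37 to 5.26, was the only member of the marker lists with an unadjusted p under 0.05 (limma, difference -0.42 ± 0.14, unadjusted p = 0.0123, adjusted p = 1.00). No other member of these marker lists reached that value.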

How the data were processed

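RNA of 12 sorted lymphomas was read on Illumina MouseWG-6 v2 arrays. Per the file headers, each deposited intensity is a mean over the beads of a probe, exported without normalization from GenomeStudio 1.6.0. The deposited detection values are a fraction, 1 minus the detection p-value, as checked against the deposited p-value table. Bead counts and bead standard deviations (deposited as counts and intensity) gave bead errors, with 13 to 68 beads per Hox probe (median 36). BeadStudio, limma 3.12.1 and R 2.15.1 are named in the submitters' processing notes.

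Here limma 3.58.1 (R 4.3.3) was used for normexp background correction with 936 negative controls, an offset of 16, quantile normalization and log2 (neqc). They equalled the authors' deposited log2 table within 5e-09. Background correction sets how far values near background spread on the log2 scale.

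A gene was tested where a probe had detection p under 0.05 on at least 3 of 12 arrays, with its brightest probe, which left 12822 genes. limma (lmFit, eBayes) compared 6 null with 6 wildtype arrays without covariates. Groups came from the sample titles. The members and gene lists were chosen with earlier results of these data known. Named genes were every Hox gene, Smchd1, and per list the members past the threshold or else the 2 with the smallest unadjusted p. The fit was tested on simulated data. A few genes of the lists are left out and not reported here. Gene names came from the files and the RefSeq table. Alternatives covered BeadChip, background, scaling, filter, probe and samples. The number of arrays limits the precision.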

Additional observations from a re-analysis of the deposited data

Results flagged for a closer look

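The values of 15 Hox genes, the 12 measured ones with Hoxb3, Hoxc6 and Hoxc9, were searched for lymphomas that stood far from the rest of their own group by Dixon's ratio, which made 30 groups of 6. Chance flags about 1 in 20 groups, but that rate does not hold for Hoxb3, Hoxc6 and Hoxc9. They were included because 1 reading of each had a detection p under 0.01. The rate is not assured either for Hoxa4, which passed the filter through null arrays alone, or for other values near background. The search flagged 3 values. Hoxa4 was at 6.721 in null 2, where the next null lymphoma, null 6, was at 5.26. Before normalization their order was reversed, with raw intensities of 117.6 in null 2 and 127.0 in null 6. Hoxc6 was at 6.355 in null 2, where the next null lymphoma was at 4.516. Hoxc9 was at 6.139 in wildtype 6, where the next wildtype lymphoma was at 4.538. Hoxa4, Hoxc6 and Hoxc9 were each read by 1 probe, and Ebf1 was not detected in null 2.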

How the results depend on the processing

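limma called 0 Hox genes under each of the 28 alternatives run. For the 12 measured genes the smallest adjusted p over them was 0.704, and 5 values had an unadjusted p under 0.05, for Hoxa4, Hoxb2, Hoxb6 and Hoxc10. With no detection filter, 1 of 39 Hox genes had one, Hoxd3, which was detected on 0 arrays. Over all genes 3 were called, against 1 on BeadChip 1 alone, 0 on BeadChip 2 alone (380 at an unadjusted p under 0.05), 3 to 5 when single lymphomas were left out (5 without wildtype 2), and 6 without wildtype 1, wildtype 2, null 1 and null 2. That last choice, and leaving out wildtype 2 with null 2, were made after seeing the data. On BeadChip 1 alone the difference turned to 0.16 for Hoxb2, 0.15 for Hoxb5, 0.56 for Hoxb7 and 0.13 for Hoxc8. Hoxc4 turned to -0.072 on BeadChip 2 alone, -0.026 with array weights, -0.10 without wildtype 2 and null 2, and -0.11 without those and wildtype 1 and null 1. With single lymphomas left out, Hoxa13 ran from -0.27 to 0.037, Hoxc4 from -0.050 to 0.23 and Hoxc8 from -0.11 to 0.042. The causes were not tested. With the replicate number as a replicate block, 3 genes were called over all genes and 0 Hox genes. Same-numbered lymphomas had correlations of their deviations from 0.681 to -0.261, and 2 of 6 wildtype lymphomas correlated best with their own number, so the numbers were not taken as pairs. Hox genes below detection have only a bound at this signal over background.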
